A study of Homo sapiens with 12 samples.

Results

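The genes described are 36 genes of the lysosome and of autophagy, taken from the deposited table by gene symbol from a list set by function. The list was chosen with earlier results of these data known. All 36 were found among the 50868 genes of the table, and all 36 were among the 16554 genes with enough counts to be tested. They comprise 5 lysosomal membrane proteins, 8 proteases, 6 genes for glycosidases and a lipase, 2 genes for enzyme activators and progranulin, 5 subunits of the proton pump, 2 transcription factors and 8 autophagy proteins. They were followed in RPMI2650, an established human epithelial line of nasal origin recorded as wild type, cultured at an air-liquid interface. The 3 groups of 4 libraries were control cells, cells given 1 µM PFBA (perfluorobutanoic acid) for 7 days and cells given 1 µM PFHxA (perfluorohexanoic acid, the same kind of acid with a longer carbon chain) for 7 days. The control libraries carry no vehicle, dose or day in their labels, so their match in culture time could not be checked. Whether a group's libraries come from separate cultures is not stated, and p-values then measure only the spread between these libraries, which may be technical. Libraries are called by group and by the column letter a to d, which is not tied to the replicate numbers of the labels.

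The lysosome is the acidic compartment in which cells break down proteins, glycans and lipids. Soluble hydrolases reach it with the help of mannose 6-phosphate receptors, the V-ATPase pumps in the protons that keep it acidic, and heavily glycosylated membrane proteins line its inner face. Autophagy encloses cytoplasm in a double membrane, marked by small proteins anchored to its lipids, and delivers it to the lysosome. TFEB and TFE3 are related transcription factors that, when nutrient signalling through mTORC1 is low, enter the nucleus and bind a short palindrome near the start sites of many lysosome and autophagy genes.

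The smallest total count was 16941599 (control d) and the largest 21879105 (PFBA a), and the 36 genes took between 0.384% and 0.422% of the counts of a library. Levels are in CPM, each count divided by the TMM-scaled library total and set to a common library size. Replicates of a group differed by at least 9.60 in chi-square per gene, far more than counting noise, so no library looked like a copy of another. Control d stood furthest from its group, at 20.87, 18.03 and 16.04 from control a, b and c. All other pairs lay at or below 13.7. All 8 epithelial markers were at or above 1 CPM, with a summed level from 2547 to 3000 CPM, while 6 macrophage markers summed to between 0.273 and 1.01 CPM in any library. A list of 6 fibroblast and endothelial markers summed to between 29.1 and 34.8 CPM, with 3 of them at or above 1 CPM. Mitochondrial genes took 9.15% of counts in control d, 10.97% to 11.9% in the other control libraries, 11.1% to 11.7% with PFBA and 11.7% to 12.9% with PFHxA, and their part in the results was not tested. The PFHxA libraries also had relatively more counts on GC-rich transcripts, with a slope of 0.061 to 0.092 log2 units per 10 percentage points of GC, against -0.063 to -0.0039 in the other 8 libraries.

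The palindrome bound by TFEB and TFE3 is shown here for the genes of the set that hold it, because the same genes return in the comparison below. TCACGTGA reads the same on both strands and contains the shorter E-box CACGTG. In windows from 250 bases before to 50 bases after each start site (RefSeq, GRCh38.p14), 28 of the 36 genes had an entry and 5 of these held TCACGTGA, against 321 of all 27305 genes with an entry (1.176%). Some genes had more than 1 window. By window, 5 of 42 held it, against 0.98% of all 35116. The shorter CACGTG was found in 7 of the 28 genes and in 8.78% of all genes with an entry. The 30 bases around the first copy are printed 5′ to 3′ on the strand of the gene, with the palindrome in capitals. They are chr20:45891298-45891327 (plus strand) for CTSA, chr17:80101493-80101522 (plus) for GAA, chr16:67481199-67481228 (minus) for ATP6V0D1, chr13:113297199-113297228 (plus) for LAMP1 and chr19:7522571-7522600 (plus) for MCOLN1.
CTSA: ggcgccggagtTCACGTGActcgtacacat
GAA: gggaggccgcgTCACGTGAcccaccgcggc
ATP6V0D1: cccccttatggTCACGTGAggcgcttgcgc
LAMP1: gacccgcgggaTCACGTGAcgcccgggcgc
MCOLN1: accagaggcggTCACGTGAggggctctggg
The palindrome began 26 bases before the RefSeq start in CTSA, 29 in LAMP1, 42 in MCOLN1, 60 in ATP6V0D1 and 77 in GAA. In CTSA and ATP6V0D1 it lay inside the gene's annotated span. All 5 windows were GC-rich, from 66.7% in CTSA to 81.3% in GAA. For GAA, the gene of the 5 with the smallest p in the comparison of PFHxA with control, the 225 bases that precede the gene's annotated span (chr17:80101331-80101555, plus) are printed to show the setting of the site, again with the palindrome in capitals.
GAA upstream: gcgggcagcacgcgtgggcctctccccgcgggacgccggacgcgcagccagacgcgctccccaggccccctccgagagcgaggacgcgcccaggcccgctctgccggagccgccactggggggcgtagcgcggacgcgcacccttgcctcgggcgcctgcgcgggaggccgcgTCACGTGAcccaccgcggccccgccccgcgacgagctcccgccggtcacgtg
The stretch ends inside the other copy of the palindrome in GAA, whose last base lies in the annotated gene. A match describes letters in a window and says nothing of binding in these cells.

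In control cells the genes spanned more than 2 orders of magnitude per transcript length. Per kilobase of the longest transcript, CTSD, the aspartic protease cathepsin D, stood highest at 373 CPM per kb, followed by PSAP, the precursor of the saposins that present lipids to hydrolases, at 162, the tetraspanin CD63 at 112 and LIPA, lysosomal acid lipase, at 100.5. SQSTM1, the autophagy receptor p62, reached 82.8 and the carboxypeptidase CTSZ 67.4 CPM per kb. At the other end were TFEB at 1.95, CTSC, a dipeptidyl peptidase of immune granules, at 1.38, and WIPI1, a phosphoinositide-binding protein of forming autophagosomes, at 0.718 CPM per kb. TFE3, at 16.2 CPM per kb, stood well above its relative TFEB on this scale. The plot of levels per kilobase shows hydrolases, membrane proteins and autophagy genes mixed along the whole range.

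**Figure D1:**
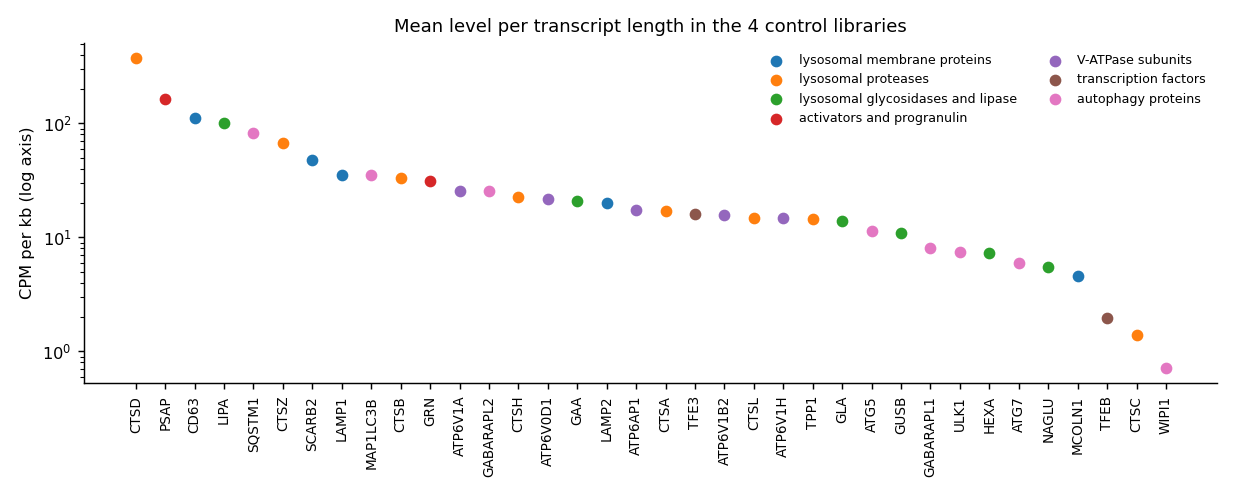
Mean level of each of the 36 genes in the 4 control libraries, as CPM per kb of the longest transcript on a log axis, ordered from highest to lowest and coloured by role. CTSD at 373 and PSAP at 162 lead, and TFEB, CTSC and WIPI1 lie lowest.

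A gene was called when its adjusted p (edgeR quasi-likelihood test, Benjamini-Hochberg over all 16554 genes) was below 0.05. With PFBA, 0 of the 36 genes were called, where 0.00604% of all tested genes were. At an unadjusted p under 0.05, 3 of the 36 were higher and 1 lower. Of all 16554 tested genes, 787 were higher and 845 lower at that threshold. DESeq2 and limma-voom also called 0 of 36. With PFHxA, 7 of the 36 were called against control, all of them higher: TFE3, PSAP, TPP1, GAA, ULK1, CTSA and ATP6AP1. Over all tested genes 14.9% were called in that comparison, 6.08% as higher and 8.82% as lower. Between PFHxA and PFBA, 5 of the 36 were called, all higher with PFHxA, where 10.9% of all tested genes were called, 3.84% as higher and 7.07% as lower. The median log2 change of the 36 genes was 0.013 with PFBA, 0.097 with PFHxA and 0.050 between the acids, beside -0.0026, -0.0039 and 0.0055 over all tested genes. Called changes were small, the largest being 1.23-fold, in TPP1. The comparisons with control share the 4 control libraries, and those of PFHxA share the 4 PFHxA libraries.

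**Figure D2:**
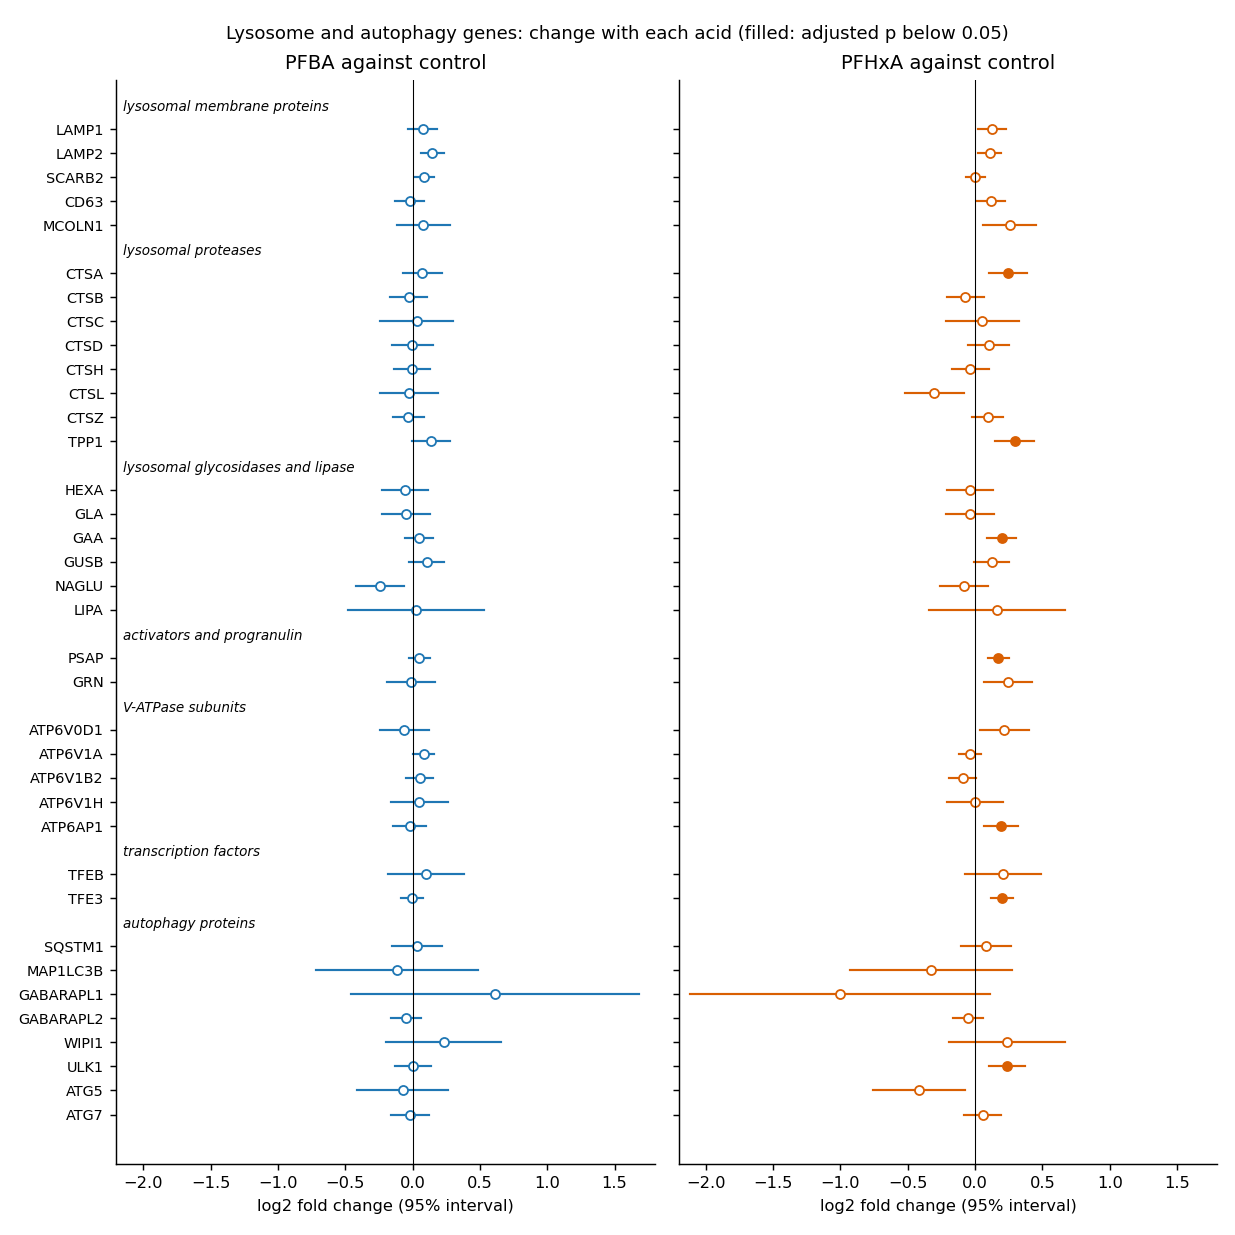
Log2 fold change of each of the 36 genes against control with its 95% interval, for PFBA (left) and PFHxA (right), grouped by role; filled points have an adjusted p below 0.05. No point is filled for PFBA and 7 are filled for PFHxA, all to the right of 0, while GABARAPL1, MAP1LC3B and LIPA have the widest intervals.

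These calls were lost when a trend over GC content and transcript length was taken out of each library. The 2 were removed together and neither was removed alone. The GC slope set the PFHxA libraries apart from all others. Its removal therefore cannot tell a library effect from a response to PFHxA. After the removal, none of the 7 genes called against control and none of the 5 called between the acids passed. The test then called 1 of the 36 against control, LAMP2, where 2.62% of all genes were called. Between the acids it called 0 of 36, where 0.882% of all genes were called. At an unadjusted p under 0.05, 4 of the 36 were then higher and 2 lower between the acids. Of all 16554 tested genes, 1155 were higher and 1071 lower at that threshold. Over all 36 genes the median log2 change with PFHxA was 0.067 after the removal, beside 0.0011 over all genes. The values after removal are given below for each called gene. Of the genes not called against control as fitted and described below, the log2 change with PFHxA became 0.030 in LAMP1, 0.11 in CD63, 0.18 in MCOLN1, 0.017 in CTSD, -0.33 in CTSL, 0.16 in GRN, 0.12 in ATP6V0D1, -0.0042 in SQSTM1 and -0.21 in ATG5, none of them called.

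Among the lysosomal membrane proteins no gene was called with either acid as fitted. LAMP2 (chrX:120427827-120469365), a main glycoprotein of the lysosomal membrane that also serves chaperone-mediated autophagy, was at 82.3, 82.1, 79.8 and 78.3 CPM in control a to d. It was at 90.6, 88.5, 87.5 and 90.4 CPM with PFBA and at 83.6, 90.2, 84.6 and 89.1 CPM with PFHxA. Every library of both acids lay above every control library. The log2 change was 0.15 with PFBA (SE 0.039, adjusted p = 0.304) and 0.11 with PFHxA (SE 0.039, adjusted p = 0.0815). LAMP2 has an AT-rich transcript, with 37.7% GC, and with the trend removed its change with PFHxA was 0.31 (adjusted p = 0.00724), while that with PFBA was 0.14 (adjusted p = 0.429).

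The other membrane proteins stayed within 1.195-fold of control in their means as fitted. SCARB2, the receptor that carries glucocerebrosidase to the lysosome and the gene of this group with the highest CPM in control, was at 282, 278, 271 and 273 CPM in control, 290, 290, 297 and 295 CPM with PFBA, and 282, 273, 282 and 268 CPM with PFHxA. The PFBA libraries lay above all others, with a log2 change of 0.085 (adjusted p = 0.427), whereas the change with PFHxA was 0.00025 with a 95% interval from -0.070 to 0.070. LAMP1, the companion of LAMP2, ranged from 180 to 193 CPM in control and from 195 to 220.5 CPM with PFHxA, with no overlap and a log2 change of 0.13 (adjusted p = 0.104). MCOLN1, the calcium channel TRPML1 of the lysosomal membrane, was at 9.75 to 10.8 CPM in control and 11.9 to 12.7 CPM with PFHxA, again with no overlap, for a log2 change of 0.26 (SE 0.092, adjusted p = 0.0796) that was called in the fit of the 8 libraries compared and without PFBA d. Its span overlaps PNPLA6 on the same strand, a gene at 50.2 CPM. CD63 changed by 0.12 (adjusted p = 0.130) with overlapping libraries.

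Of the 8 proteases, 2 rose with PFHxA. TPP1 (chr11:6612763-6619461), the tripeptidyl peptidase lost in a childhood form of neuronal ceroid lipofuscinosis, was at 71.5, 71.2, 67.5 and 57.2 CPM in control, 77.8, 72.5, 74.9 and 68.5 CPM with PFBA, and 80.4, 81.0, 81.8 and 84.8 CPM with PFHxA. All 4 PFHxA libraries lay above all others, and control d was the lowest of the 12. The log2 change with PFHxA was 0.29 (SE 0.066, adjusted p = 0.0105), and the call was kept when any 1 of the 12 libraries was left out. Without the GC and length trend it was 0.22 (adjusted p = 0.0635).

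CTSA (chr20:45890144-45898820), the carboxypeptidase that protects β-galactosidase and neuraminidase, was at 50.6, 56.7, 47.8 and 51.7 CPM in control, 50.2, 59.6, 56.4 and 51.0 CPM with PFBA, and 57.7, 62.5, 60.4 and 64.2 CPM with PFHxA. The PFHxA libraries lay above every control library, the nearest being 57.7 against 56.7 CPM, and PFBA overlapped both. The log2 change with PFHxA was 0.24 (SE 0.067, adjusted p = 0.0263). Leaving out control a, control c, control d, PFHxA b or PFHxA d ended the call, with adjusted p reaching 0.0750, and the change was 0.15 (adjusted p = 0.254) with the trend removed. CTSA overlaps PLTP on the opposite strand, a gene at 92.4 CPM, and whether the counts used strand is not stated in the labels.

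The most abundant protease, CTSD, ranged from 726 to 863 CPM in control, from 687 to 874 CPM with PFBA and from 833 to 878 CPM with PFHxA. The groups overlapped, and its log2 change with PFHxA was 0.100 (adjusted p = 0.404). CTSL, the cysteine protease cathepsin L, went the other way in its values, at 33.9, 34.6, 29 and 32.2 CPM in control and 27.9, 25.2, 22.6 and 29.4 CPM with PFHxA. Its log2 change was -0.30 (SE 0.10, adjusted p = 0.0637), not called here and called by DESeq2. CTSB, CTSC, CTSH and CTSZ had log2 changes between -0.074 and 0.094 with PFHxA, with overlapping libraries.

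Among the glycosidases and the lipase, GAA was the single gene called. GAA (chr17:80101556-80119879), the acid α-glucosidase that degrades glycogen and is lost in Pompe disease, was at 74.1, 79.1, 75.6 and 70.4 CPM in control, 72.9, 83.1, 77.7 and 75.3 CPM with PFBA, and 87.7, 86.4, 84.4 and 84.3 CPM with PFHxA. The 4 PFHxA libraries were the 4 highest of the 12. The log2 change with PFHxA was 0.20 (SE 0.049, adjusted p = 0.0172) and the call was kept without any 1 library, but the change was 0.070 (adjusted p = 0.386) with the trend removed. GAA has one of the most GC-rich transcripts of the set, at 64.1%.

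The remaining genes of this group were not called. NAGLU, a glucosaminidase of heparan sulfate breakdown, had its lowest values with PFBA, at 10.8, 13.4, 11.99 and 11.4 CPM against 14.2, 13.9, 14.6 and 13.5 CPM in control. No library overlapped, and the log2 change was -0.24 (SE 0.083, adjusted p = 0.390). GUSB, β-glucuronidase, was tightly grouped in control at 27.7 to 28.03 CPM and lay at 28.2 to 31.1 CPM with PFBA (log2 change 0.11, adjusted p = 0.590). HEXA, the α chain of β-hexosaminidase, and GLA, α-galactosidase A, had log2 changes between -0.056 and -0.036 with either acid.

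PSAP rose with PFHxA, and GRN did not pass. PSAP (chr10:71816298-71851375) was at 467, 467, 478 and 453 CPM in control, 473, 487, 486 and 482 CPM with PFBA, and 496, 543, 530 and 534 CPM with PFHxA. All PFHxA libraries lay above all PFBA and control libraries, with PFHxA a the lowest of them. The log2 change against control was 0.17 (SE 0.036, adjusted p = 0.00745), kept without any 1 library, and 0.11 (adjusted p = 0.0806) with the trend removed. GRN, which encodes progranulin, a secreted glycoprotein processed in lysosomes, was at 78.4, 65.4, 84.7 and 61.5 CPM in control and 84.7, 85.5, 86.9 and 87.0 CPM with PFHxA. Control c reached the lowest PFHxA library, and the log2 change of 0.25 (SE 0.082, adjusted p = 0.0619) was not called here but was by DESeq2.

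Of the 5 subunits of the V-ATPase, 1 was called as higher with PFHxA than control and 0 as lower. ATP6AP1 (chrX:154428632-154436516), an accessory subunit that guides pump assembly, was at 79.0, 79.1, 82.0 and 73.3 CPM in control, 70.0, 79.6, 80.4 and 78.5 CPM with PFBA, and 81.9, 90.9, 94.3 and 91.1 CPM with PFHxA. PFHxA a fell just below control c, and the other 3 PFHxA libraries lay above all other libraries. The log2 change against control was 0.19 (SE 0.058, adjusted p = 0.0404). The call was lost without control a, b or d or PFHxA b, c or d (adjusted p up to 0.105) and in a fit of the 8 libraries compared (adjusted p = 0.0510), and the change was 0.087 (adjusted p = 0.421) with the trend removed.

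ATP6V0D1 (chr16:67438014-67481237), a subunit of the membrane sector that joins it to the stalk, was at 69.7, 67.6, 81.7 and 75.4 CPM in control, 73.3, 60.5, 79.9 and 68.1 CPM with PFBA, and 79.7, 88.3, 91.9 and 82.3 CPM with PFHxA. Control c and PFBA c reached the lowest PFHxA library, so that the groups overlapped slightly. Against control its log2 change was 0.22 (SE 0.084, adjusted p = 0.101), which did not pass. ATP6V1A, the catalytic subunit, was at 116 to 119 CPM in control, 119 to 129 CPM with PFBA and 110 to 118 CPM with PFHxA, with log2 changes of 0.081 (adjusted p = 0.505) and -0.037 (adjusted p = 0.581). ATP6V1B2, of the same cytosolic sector, changed by -0.094 (adjusted p = 0.211) and the regulatory subunit ATP6V1H by -0.00029 (95% interval -0.21 to 0.21) with PFHxA.

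Of the 2 transcription factors, TFE3 gave the smallest p of all 36 genes in both comparisons of PFHxA. TFE3 (chrX:49028726-49043486) was at 56.1, 56.1, 53.7 and 54.7 CPM in control, 55.5, 56.8, 54.6 and 53.1 CPM with PFBA, and 63.2, 64.1, 64.2 and 61.6 CPM with PFHxA. Control and PFBA lay over the same range, and every PFHxA library lay above all 8 of them. The log2 change was 0.20 (SE 0.039, adjusted p = 0.00521) with PFHxA and -0.0040 with PFBA (95% interval -0.087 to 0.079). The PFHxA call was kept without any 1 library, and with the trend removed the change was 0.095 (adjusted p = 0.218).

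TFEB, present at far lower counts (80 to 133 reads per library), was at 5.08, 5.48, 4.96 and 4.67 CPM in control, 5.47, 6.26, 5.20 and 4.73 CPM with PFBA, and 7.27, 5.97, 5.25 and 4.89 CPM with PFHxA. PFHxA a was the highest of the 12 and PFHxA d lay within the control range. Its fitted log2 change with PFHxA, 0.21, was about that of TFE3, but with an SE of 0.13 it was not called (adjusted p = 0.332), and a difference between the factors was not tested.

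**Figure D3:**
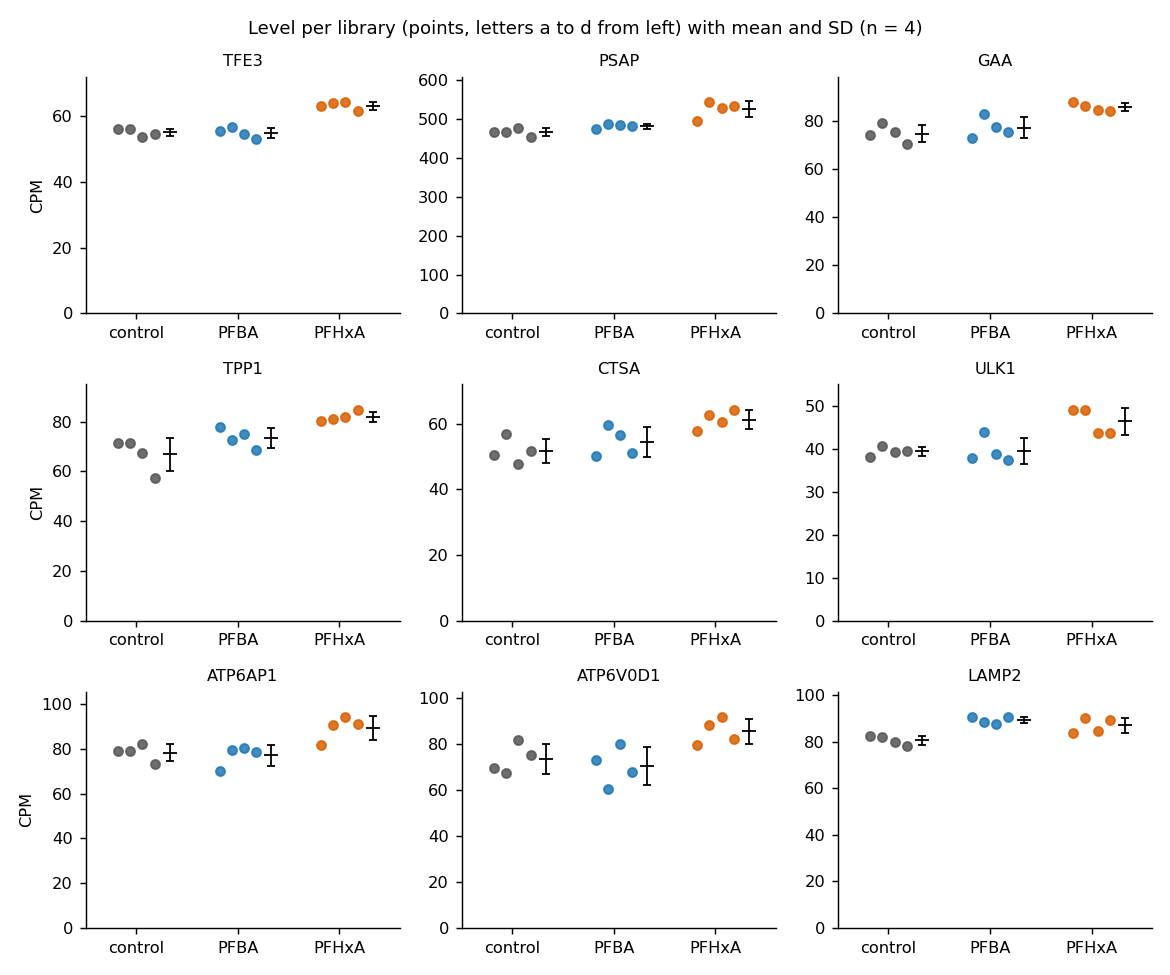
CPM in each library (points, letters a to d from left to right) with mean and SD for the 8 genes called in any comparison and for LAMP2, in control (grey), PFBA (blue) and PFHxA (orange), each axis starting at 0. The 4 TFE3 points with PFHxA, 61.6 to 64.2, lie above the 8 others, and for LAMP2 both acids lie above control.

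Among the 8 autophagy proteins, ULK1 rose with PFHxA. ULK1 (chr12:131894651-131923167), the kinase that starts autophagosome formation, was at 38.1, 40.6, 39.4 and 39.6 CPM in control, 37.9, 44.0, 38.8 and 37.5 CPM with PFBA, and 49.0, 49.1, 43.7 and 43.7 CPM with PFHxA. PFHxA a and b were the highest, PFHxA c and d lay above every control library, and PFBA b lay just above PFHxA c and d. The log2 change was 0.23 (SE 0.062, adjusted p = 0.0239) and was not called without control a or PFHxA a or b (adjusted p up to 0.0648). With the trend removed it was 0.064 (adjusted p = 0.552), and at 64.2% GC the ULK1 transcript is, with NAGLU and GAA, among the most GC-rich of the set.

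SQSTM1, which links ubiquitinated cargo to LC3, ranged from 211 to 273 CPM in control, from 239 to 276 CPM with PFBA and from 234 to 287 CPM with PFHxA. The groups overlapped throughout, and its log2 change with PFHxA was 0.081 (95% interval -0.10 to 0.27, adjusted p = 0.602). GABARAPL2, a relative of GABARAPL1, and ATG7, the enzyme that activates such proteins, had log2 changes within 0.077 of 0 in all comparisons. WIPI1 was counted at 22 to 40 reads per library, and its log2 change with PFHxA had a 95% interval from -0.19 to 0.66.

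GABARAPL1 and MAP1LC3B gave the most uneven values of the set. GABARAPL1, a small protein of the autophagosome membrane, was at 19.4, 19.3, 52.3 and 13.2 CPM in control, 44.3, 49.4, 13.9 and 51.5 CPM with PFBA, and 14.97, 12.9, 11.1 and 13.0 CPM with PFHxA. The values fell into a high level near 50 CPM in control c and PFBA a, b and d and a low level in the other 8 libraries, which included all 4 PFHxA libraries. The log2 change was 0.61 with PFBA (SE 0.48, adjusted p = 0.722) and -1.0 with PFHxA (SE 0.50, adjusted p = 0.225). Its biological coefficient of variation, 0.460, was above that of 98.3% of tested genes, where the trend for its level was 0.126.

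MAP1LC3B, which encodes the LC3B protein that marks autophagosomes, was at 108, 110, 109 and 106 CPM in control, 117, 106, 62.5 and 113 CPM with PFBA, and 54.96, 117, 61.7 and 111 CPM with PFHxA. PFHxA a and c and PFBA c were near 60 CPM, and the other 9 libraries were between 106 and 117 CPM. The log2 change with PFHxA was -0.33 (SE 0.27, adjusted p = 0.490). FBXO31, a gene on the opposite strand whose span overlaps that of MAP1LC3B, also had 2 levels, at 34.2 CPM in control c, 37.5 in PFHxA b and 36.3 in PFHxA d, and between 73.0 and 85.7 CPM in the other 9 libraries. The libraries low in FBXO31 were thus not those low in MAP1LC3B. How counts over the shared bases were assigned is not stated in the labels; MAP1LC3B2, a near copy of MAP1LC3B at 5.32 CPM in control, may share reads with it.

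LIPA was uneven within every group, and ATG5 had a single library apart. LIPA was at 244, 235, 381 and 258 CPM in control, 250, 227, 268 and 391 CPM with PFBA, and 346, 298, 378 and 228 CPM with PFHxA, with no group set off. Its annotated span holds IFIT1, IFIT2 and IFIT3 on the opposite strand, at 184, 43.9 and 44.1 CPM. ATG5, part of the conjugation machinery for LC3, was at 34.9, 35.8, 32.6 and 41.4 CPM in control and 30.5, 30.8, 30.1 and 17.2 CPM with PFHxA. All PFHxA libraries lay below all others, most of all PFHxA d, and the log2 change of -0.41 (SE 0.16, adjusted p = 0.101) was called by DESeq2. LIPA, MAP1LC3B and GABARAPL1 were the 3 genes of the set whose coefficient of variation exceeded 2 times the trend, as did 4.58% of all tested genes, while the median over the 36 was 0.0799 against 0.0981 over all tested genes.

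**Figure D4:**
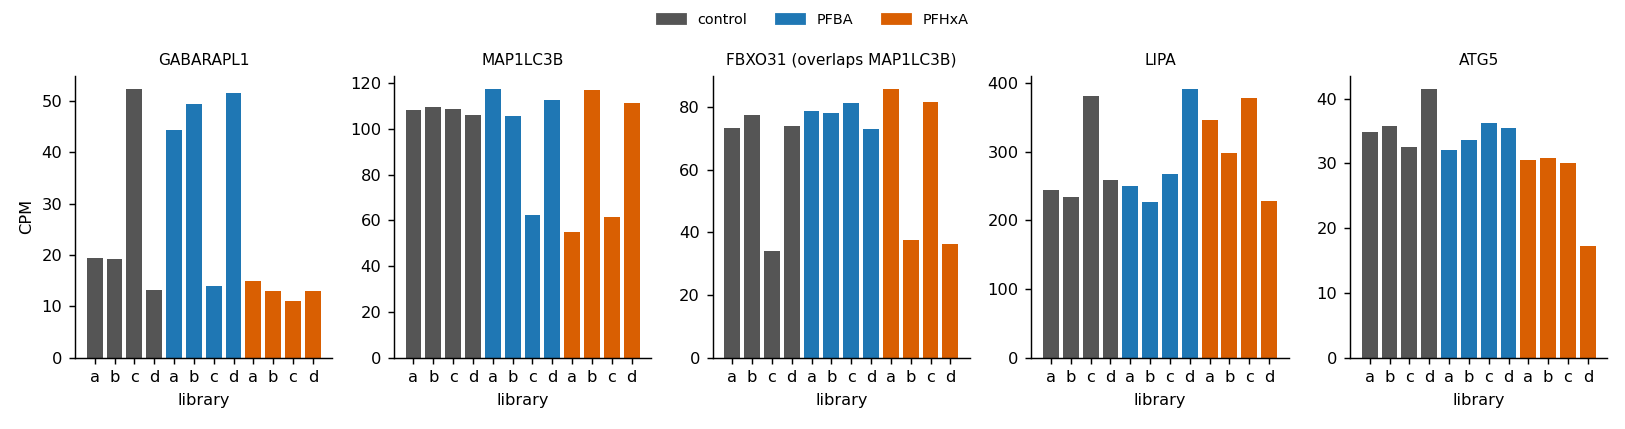
CPM in each of the 12 libraries (letters a to d, coloured by group) for GABARAPL1, MAP1LC3B, FBXO31, which overlaps MAP1LC3B on the opposite strand, LIPA and ATG5. GABARAPL1 is near 50 in control c and in PFBA a, b and d, MAP1LC3B is near 60 in PFBA c and in PFHxA a and c, and ATG5 is lowest in PFHxA d at 17.2.

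At the same dose and time, the acids were compared directly in the same fit as 1 pair, with p-values adjusted over all tested genes. TFE3 was higher with PFHxA than with PFBA by 0.20 (SE 0.039, adjusted p = 0.00582), with all 4 PFHxA libraries above all 4 PFBA libraries, and this call was kept without any 1 library. ATP6AP1 was higher by 0.22 (SE 0.058, adjusted p = 0.0300), ULK1 by 0.23 (SE 0.062, adjusted p = 0.0310), PSAP by 0.12 (SE 0.036, adjusted p = 0.0424) and ATP6V0D1 by 0.28 (SE 0.083, adjusted p = 0.0480). These 4 calls depended on single libraries. Without PFBA a, PFBA d or PFHxA b, TFE3 alone passed. The ATP6AP1 call was also lost without PFHxA c or d, that of ULK1 without PFBA c or PFHxA a, that of PSAP without control b or c, PFBA b or c, or PFHxA c or d, and that of ATP6V0D1 without control a, b or d, PFBA b, or PFHxA c or d, with adjusted p of at most 0.0844, 0.0912, 0.118 and 0.120. In a fit of the 8 libraries compared, ULK1, PSAP and ATP6V0D1 were not called (adjusted p = 0.0626, 0.0563 and 0.0583). PSAP was also not called without the filter on low counts (adjusted p = 0.0954), nor ATP6V0D1 with limma-voom (adjusted p = 0.0508). With the trend removed, the differences were 0.094 for TFE3 (adjusted p = 0.298), 0.12 for ATP6AP1, 0.094 for ULK1, 0.045 for PSAP and 0.18 for ATP6V0D1, none called.

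For several genes the difference between the acids was not called, and its size is given here with its interval. SQSTM1 differed by 0.047 (95% interval -0.14 to 0.23), LAMP1 by 0.053 (-0.053 to 0.16), CTSD by 0.10 (-0.052 to 0.26) and GABARAPL2 by -0.0027 (-0.11 to 0.11). LAMP2 differed by -0.038 (-0.12 to 0.045) as fitted and by 0.16 (adjusted p = 0.114) with the trend removed. ATP6V1A, ATP6V1B2 and GABARAPL1 were lower with PFHxA by 0.12, 0.15 and 1.61 on the log2 scale in the fit, with adjusted p of 0.0599, 0.0610 and 0.0674, and all 3 were called by DESeq2 and with a stricter filter. The ATP6V1A and ATP6V1B2 libraries did not overlap between the acids, and after removal of the trend these 2 differences were 0.025 and -0.000065.

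The 7 genes called against control had transcripts from 50.7% GC (TPP1) to 64.2% (ULK1). Transcripts of the 36 genes had a median GC content of 52.6%, against 48.5% over all tested genes, and a median length of 3070 nt against 3252 nt. Below 50% GC, 0 of the 13 genes were called as higher with PFHxA, where of all tested genes 0.159% were below 40%, 1.3% from 40% to 45% and 4.84% from 45% to 50%. Between 50% and 55%, 3 of 11 were, where 10.2% of all tested genes of that band were. Between 55% and 60%, 1 of 5 were, where 10.7% of all were, and from 60% upward 3 of 7, where 11.8% of all were. Across the 36 genes the log2 change with PFHxA had a Pearson r of 0.38 and a Spearman rho of 0.52 with GC content, and across 16452 tested genes the values were 0.35 and 0.46. These points are genes measured in the same libraries and are not independent replicates. Median changes of all genes went from -0.20 below 40% GC to 0.11 from 60% upward. Those of the genes in the set were 0.053 (3 genes), -0.037, -0.036, 0.12, 0.20 and 0.23 (7 genes) from the lowest band to the highest.

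**Figure D5:**
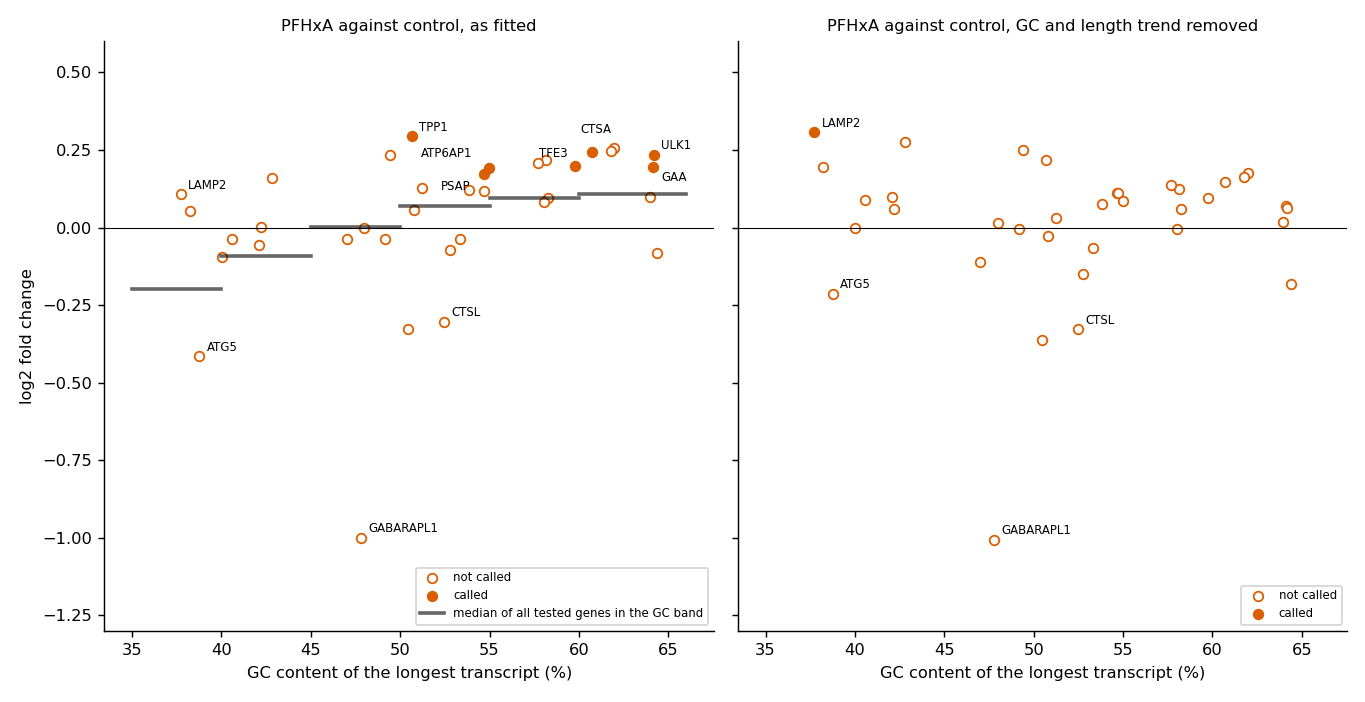
Log2 fold change with PFHxA against the GC content of the longest transcript for the 36 genes, as fitted (left, with the median of all tested genes in each GC band as bars, the end bands cut to the plot) and after each library's GC and length trend was removed (right); filled points are called. The 7 filled points on the left lie above 50% GC, and on the right LAMP2 at 37.7% GC is the filled point.

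The 5 genes with TCACGTGA near the start, shown above, were all fitted as higher with PFHxA than control, by 0.13 (LAMP1) to 0.26 (MCOLN1) with a median of 0.22, and 2 of them, CTSA and GAA, were called. The 23 genes with an entry and no such site had a median of 0.094, with 4 called. Of all tested genes, 6.08% were called as higher in that comparison, and 11.85% of those with at least 60% GC. The transcripts of the 5 had a median GC content of 60.7% and those of the 23 one of 52.5%. Without the GC and length trend the medians were 0.12 and 0.064, and none was called in either group. With PFBA the 5 had a median of 0.072 and the 23 one of -0.0040. The difference between the genes with and without the site was not tested. TFE3, TPP1, ULK1 and ATP6AP1 were the 4 called genes with an entry and no site. LAMP2, CTSB, HEXA, NAGLU, PSAP, ATP6V1A, ATP6V1B2 and ATP6V1H are the 8 genes without an entry.

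The wider pathway was read from 6 further lists of 154 genes, 147 of them tested. With PFBA 0 of 147 were called by edgeR and 1 by DESeq2, which called 44 of all 16554 tested genes. At an unadjusted p under 0.05 in edgeR, 10 of the 147 were higher and 7 lower. Of all tested genes, 787 were higher and 845 lower at that threshold. With PFHxA 16 rose and 16 fell, 21.8% against 14.9% of all tested genes, and 3 remained called with the trend removed: IGF2R, RB1CC1 and TAX1BP1. These 3 are 2.04% of the 147, beside 2.62% of all tested genes with the trend removed. The count rested on PFHxA b and others, being 15 without PFHxA b, 21 without PFHxA c and 21 without control d. Over all tested genes the count went from 2466 to 1523, 1665 and 1784 in these fits.

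Of the hydrolase sorting list, 3 of 14 rose and 3 fell, 42.9% called beside 14.9% of all tested genes. The 6 called include PPT2, which encodes a lysosomal thioesterase and not a sorting protein. IGF2R (chr6:159969099-160113507), the cation-independent mannose 6-phosphate receptor that delivers hydrolases to lysosomes, was at 262, 252, 251 and 211 CPM in control, 286, 288, 279 and 285 CPM with PFBA, and 324, 334, 340 and 342 CPM with PFHxA. The 3 groups did not overlap at all, with PFBA between control and PFHxA. The log2 change was 0.46 with PFHxA (SE 0.056, adjusted p = 0.00113), 0.31 with the trend removed (adjusted p = 0.00336), and 0.22 with PFBA (adjusted p = 0.304). The difference between the acids, 0.24, was called both as fitted (adjusted p = 0.01604) and with the trend removed (adjusted p = 0.0372). NAGPA, the enzyme that uncovers the mannose 6-phosphate tag, rose by 0.41 (adjusted p = 0.0190), not called without PFHxA b or d, without the filter or in the fit of 8 libraries. The retromer subunits VPS35 and VPS26A, which return receptors from endosomes, fell by 0.21 and 0.37 on the log2 scale (adjusted p = 0.00949 and 0.0148).

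Of 38 further autophagy genes tested, 2 rose and 6 fell, 21.1% called beside 14.9% of all tested genes. TAX1BP1, a cargo receptor for ubiquitinated proteins, was at 118, 115, 119 and 127 CPM in control, 126, 107, 118 and 119 CPM with PFBA, and 98.4, 78.1, 83.6 and 79.9 CPM with PFHxA. RB1CC1, the FIP200 scaffold of the ULK1 complex, was at 79.95, 88.5, 86.4 and 86.6 CPM in control, 88.6, 86.5, 88.3 and 91.0 CPM with PFBA, and 68.9, 59.9, 63.9 and 66.05 CPM with PFHxA. In both, the 4 PFHxA libraries lay below the 8 others. TAX1BP1 fell by 0.49 on the log2 scale (SE 0.071, adjusted p = 0.00161) and RB1CC1 by 0.40 (SE 0.049, adjusted p = 0.00113), and both stayed called with the trend removed, at -0.53 (adjusted p = 0.00697) and -0.26 (adjusted p = 0.0132). ULK1 and its scaffold RB1CC1 thus had opposite called changes as fitted. ATG9A, a lipid scramblase of the autophagy membrane source, rose by 0.28 (adjusted p = 0.00440) and ATG12, the ubiquitin-like partner of ATG5, fell by 0.27 (adjusted p = 0.00619), and neither was called with the trend removed.

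Of 34 further hydrolases tested, 4 rose and 0 fell, 11.8% called beside 14.9% of all tested genes. The acid nuclease DNASE2, the β-galactosidase GLB1 and the asparaginyl protease LGMN rose by 0.23, 0.20 and 0.20 on the log2 scale (adjusted p = 0.0240, 0.0282 and 0.0285). Each of these 3 lost its call without at least 3 single libraries and with the trend removed. Of 25 further membrane proteins, 3 rose and 2 fell, 20% called beside 14.9% of all tested genes. Among them were the endolysosomal cation channel TPCN1 at 0.32 (adjusted p = 0.00359) and the cystine exporter CTNS at 0.30 (adjusted p = 0.0204). The mTORC1 scaffold subunit LAMTOR3 was at -0.39 (adjusted p = 0.0106) and OSTM1, the partner of a chloride transporter, at -0.28 (adjusted p = 0.0190). CTNS was not called without PFHxA d, nor OSTM1 without PFHxA b or c.

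Of 16 further V-ATPase subunits, 1 rose and 4 fell, 31.2% called beside 14.9% of all tested genes (6.08% higher and 8.82% lower). Their transcripts had a median GC content of 46.0%, against 48.5% over all tested genes. ATP6V0A1, of the membrane sector, rose by 0.26 (adjusted p = 0.00790), whereas ATP6V1G1, of the stalk, fell by 0.22 on the log2 scale (adjusted p = 0.00807). ATP6V0E1 and ATP6V1C1 fell by 0.20 and 0.15 on the log2 scale (adjusted p = 0.0302 and 0.0472); the call of ATP6V0E1 was lost without control a or d or any 1 PFHxA library, and that of ATP6V1C1 in 11 of the 12 fits that left out 1 library. Of 20 nutrient-sensing genes, 3 rose and 1 fell, 20% called beside 14.9% of all tested genes. MTOR, the kinase that keeps TFEB and TFE3 in the cytoplasm, rose by 0.28 (adjusted p = 0.00528), its partner RPTOR by 0.32 (adjusted p = 0.00398) and TSC2, which restrains mTORC1, by 0.19 (adjusted p = 0.0189, not called without control a or PFHxA b). FNIP1, a partner of folliculin in that pathway, was lower with PFHxA than with PFBA by 0.22 on the log2 scale (adjusted p = 0.0177), a call lost without PFBA a or d or PFHxA b or c. None of the genes named here from the hydrolase, membrane, V-ATPase and nutrient-sensing lists was called with the trend removed.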

How the data were processed

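RNA of 12 libraries was sequenced, 4 per group. The deposited table holds raw counts of reads per gene, which the authors made from alignments with HISAT2 2.0.4 to GRCh38, per the submitters' processing notes. The read counter, its annotation and any use of strand: not given in the sources used here. Its 12 FPKM columns were not used. Column prefixes gave the group; letters were not matched to label numbers. Total counts ranged from 16941599 to 21879105.

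Counts were analysed with edgeR 4.0.16, and in alternatives with DESeq2 1.42.0 or limma 3.58.1, under R 4.3.3 and Python 3.11.15 with pandas 2.3.3 and matplotlib 3.10.9. Genes were kept by filterByExpr (minimum count 10, total 15), libraries scaled by TMM, and all 12 libraries fitted by a robust quasi-likelihood model with group as the only term. The 3 pairs of groups were tested two-sided, a gene being called at a Benjamini-Hochberg adjusted p under 0.05 over the whole table. GC content and length came from the longest GENCODE 29 transcript, known for 99.4% of tested genes. Their trend was removed by natural splines with 5 degrees of freedom each, given as offsets. Further alternatives used DESeq2, limma-voom, only the 8 libraries of a comparison, scaling by RLE or upper quartiles, a stricter filter (1 CPM in 4 libraries, mean count 50) or none, left out each library, or added the column letter as a block. The scripts were tested on simulated data. Promoter windows are from RefSeq; no protein sequences were used.

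The genes and lists were chosen with earlier results of these data known. Named genes were those called in any comparison, those with the highest mean CPM and the smallest p of each role, TFEB and TFE3, and up to 4 called genes with the smallest p of each wider list, 1 of which is not reported here. Others (LAMP1, MCOLN1, CD63, the remaining cathepsins, GRN, NAGLU, GUSB, HEXA, GLA, ATP6V1B2, ATP6V1H, MAP1LC3B, GABARAPL1, GABARAPL2, WIPI1, ATG5, ATG7, and FBXO31 and other overlapping genes) were added after their values were seen.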

Additional observations from a re-analysis of the deposited data

Results flagged for a closer look

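Of 108 groups of 4 libraries (36 genes in 3 groups), 5 had a library far from the other 3, by a gap above Dixon's 95% critical value for 4 samples, where chance alone gives about 1 in 20. These were GLA in PFBA c at 21.7 CPM (the other 3 at 18.4 to 18.7), LIPA in control c at 381 CPM, GABARAPL1 in control c at 52.3 CPM, ATG5 in PFHxA d at 17.2 CPM and ATG7 in control b at 33.7 CPM. Of the 36 genes, 11 overlapped a gene with a mean of at least 1 CPM. Among them were GLA (RPL36A-HNRNPH2, 13.7 CPM) and ATG7 (VGLL4, 92.8 CPM).

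The change against control differed between the acids, by the test of PFHxA against PFBA, in 5 genes. These were 13.9% of the set, beside 10.9% of all tested genes called in that comparison. On the log2 scale, PFHxA minus PFBA was 0.12 in PSAP, 0.28 in ATP6V0D1, 0.22 in ATP6AP1, 0.20 in TFE3 and 0.23 in ULK1. TFE3 kept its call when any 1 library was left out. Of the 12 fits that left out 1 library, PSAP and ATP6V0D1 each lost their call in 9. ATP6AP1 and ULK1 each lost theirs in 5 of these fits. None of the 5 genes passed after the GC and length trend was removed.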

How the results depend on the processing

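No called change of a named gene reversed: of 2457 refits, 2244 kept their side of the threshold, 179 lost it and 34 gained it, and 55 uncalled ones changed sign. With PFBA, 0 of the 36 genes were called in every setting. With PFHxA against control, the count of 7 was 1 with the GC and length trend removed and 4 to 8 without any 1 library (4 without control a or PFHxA b). DESeq2 called 10, adding GRN higher and ATG5 and CTSL lower, and it called 2813 of all 16554 tested genes, beside 2466 in the main fit. Between the acids, the count of 5 was 8 with the stricter filter, 11 with DESeq2, 0 with the trend removed and 1 to 9 without any 1 library (1 without PFBA a, PFBA d or PFHxA b, 9 without control d). Over all tested genes, 1806 of 16554 were called between the acids in the main fit. That count was 2079 of 12757 with the stricter filter, 2398 of 16554 with DESeq2 and 2187 of 16771 without control d. The cause of these shifts was not tested.

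Over all genes, the 2466 called with PFHxA became 433 with the trend removed and 1523 without PFHxA b. The 1806 called between the acids became 146 with the trend removed and 1151, 1143, 1108, 1035 and 1179 without PFBA a, c or d or PFHxA b or c. For PFBA the single call became 44 with DESeq2, 2 without the filter or with 8 libraries, 0 with limma-voom and 0 to 4 without any 1 library. Of the other pathway genes, the 32 called with PFHxA became 3 with the trend removed, and the 19 called between the acids became 32 with DESeq2, 3 with the trend removed and as few as 8 (without PFHxA c). The columns carry none of the replicate numbers of the labels, so a replicate block on the column letter was fitted instead, chosen after seeing the data. It called 0, 9 and 6 of the 36 genes in the 3 comparisons, and 0, 2441 and 1838 of all genes. Same-letter libraries of different groups deviated from their group means with correlations of -0.090 to 0.062 (12 pairs), none above 0.1. Depth limits TFEB and WIPI1 most.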

Other observations

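PIK3C3, the lipid kinase VPS34 that marks forming autophagosomes, went from 43.5 ± 2.04 CPM in control to 36.3 ± 1.43 CPM with PFHxA and fell by 0.26 on the log2 scale (edgeR adjusted p = 0.00938). NBR1, a cargo receptor related to SQSTM1, fell by 0.12 on the log2 scale (edgeR adjusted p = 0.0482). NPC1, which exports cholesterol from lysosomes, went from 37.6 ± 3.46 to 44.0 ± 1.33 CPM and rose by 0.23 (edgeR adjusted p = 0.0238). None of these 3, chosen after their values were seen, was called once the GC and length trend was removed.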
